A study of Mus musculus with 18 samples.

Results

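Mgp, Col11a1 and Scg2 encode secreted proteins, and their transcripts were described in 3T3-L1 adipocytes with altered expression of the transcription factor IRF3. They are 3 of the 27473 gene models of the deposited count table, given there as uc009eml.1 (Mgp), uc008rbk.1 (Col11a1) and uc007bqs.1 (Scg2). They were chosen by identifier from earlier results on these libraries, as gene models that fell with LPS (lipopolysaccharide, from the outer membrane of Gram-negative bacteria, which is sensed by Toll-like receptor 4). Their LPS values are therefore a description with no test. All 3 members were among the 14970 gene models tested in the knockdown and LPS arm and the 13931 tested in the overexpression arm.

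3T3-L1 is a mouse preadipocyte line derived from embryo fibroblasts, and the libraries came from its differentiated adipocytes at passage 15. In each of 6 groups 3 libraries were sequenced. In the first arm, lentivirus was given for 6 days either to overexpress Irf3 (2D, a label whose meaning is not given) or to carry green fluorescent protein (EGFP). In the second arm the lentivirus carried a short hairpin against Irf3, with LPS (shIrf3+LPS) or without it (shIrf3), or the control hairpin shLuc, again with LPS (shLuc+LPS) or without it (shLuc). LPS treatment lasted another 6 days in the knockdown cells, a duration not stated for the control hairpin, and whether the cells without LPS were cultured as long is not given here. LPS and time in culture thus cannot be told apart. All groups share lentiviral transduction, and a single Irf3 hairpin and a single control hairpin were used.

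Mgp encodes matrix Gla protein, a small vitamin K-dependent protein that restrains calcification of arteries and cartilage in mice. Col11a1 encodes the alpha 1 chain of type XI collagen, a minor fibrillar collagen that is built into the fibrils of cartilage and other tissues and limits their diameter. Scg2 encodes secretogranin II, a granin stored in the dense-core vesicles of neuroendocrine cells and the precursor of the peptide secretoneurin. In fat tissue, extracellular matrix is laid down by fibroblast-like progenitors and by adipocytes themselves.

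The table pairs no identifier with a gene symbol, and the members' names were checked by their exon structure. On build mm9, the Mgp gene model lies on the minus strand at chr6:136820956-136824326 with 4 exons, and 7 of the 8 exon ends of the reference transcript of Mgp recurred in it at a single offset. The Col11a1 gene model lies at chr3:113733458-113926602 with 71 exons, and 133 of 134 reference exon ends recurred. The Scg2 gene model lies on the minus strand at chr1:79431244-79436665 with 2 exons, and 3 of 4 reference exon ends recurred. In the Col11a1 gene model 2 of the exons, with 569 of its 7979 bases (7.13%), are listed on the minus strand, opposite to the gene, so its count can include reads of an overlapping gene.

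The proximal promoters are shown because the transcripts were low in the same libraries. RefSeq promoter sequences (build GRCm38.p6) were matched by symbol for 2 of the 3 members, Col11a1 and Scg2. The 250 bases before the transcription start are printed 5′ to 3′ in the direction of the gene, from chr3:114030290-114030539 (plus strand) and chr1:79440027-79440276 (minus strand), with matches to the motifs searched in capitals.
Col11a1: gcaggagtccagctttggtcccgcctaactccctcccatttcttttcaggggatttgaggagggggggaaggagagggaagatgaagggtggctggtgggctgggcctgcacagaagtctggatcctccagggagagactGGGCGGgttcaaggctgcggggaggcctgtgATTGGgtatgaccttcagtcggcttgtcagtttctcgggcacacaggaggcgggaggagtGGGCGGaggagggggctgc
Scg2: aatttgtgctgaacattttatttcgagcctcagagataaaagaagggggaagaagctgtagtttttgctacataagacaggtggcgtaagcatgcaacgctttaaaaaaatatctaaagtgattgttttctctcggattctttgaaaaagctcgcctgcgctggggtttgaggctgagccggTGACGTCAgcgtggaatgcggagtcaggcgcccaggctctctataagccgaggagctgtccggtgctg
The capitals in Scg2 mark a cAMP response element, TGACGTCA, whose first base is 68 bases before the start. This element occurred in 1.55% of the 32851 promoter windows of the same length. The capitals in Col11a1 mark a pair of GC boxes, GGGCGG, at 110 and 19 bases before the start, and an inverted CCAAT box, ATTGG, at 79 bases before it. On either strand, 32.7% of all windows held GGGCGG and 33.8% held ATTGG. Neither window held the exact TATA box letters TATAAA on either strand, which occurred in 12.4% of all windows. The Scg2 window does hold tataag close to the start, which differs in the last letter, and such near matches were not searched. The motifs were chosen after the sequences had been seen, and no match within 250 bases says nothing of a factor's binding elsewhere.

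Single libraries stood apart within groups. Total counts ran from 22143302 to 34368259 per library. In shLuc, mitochondrial gene models held 14.2% of the counts in replicate 1, 2.88% in replicate 2 and 5.19% in replicate 3, against 4.21% to 7.17% in the other 9 libraries of that arm. Replicate pairs of shLuc had a chi-square statistic of at least 55.9 per degree of freedom over gene models, and pairs of the other groups of that arm at most 15.6. In the overexpression arm 2D replicate 2 stood apart, at 112 and 91.7 with replicates 1 and 3, against 10.8 between replicates 1 and 3, and EGFP pairs reached 34.2. Whether replicates were separate cultures is not stated, so p-values reflect the spread among libraries alone, which may be technical. Irf3 and markers of adipocytes or other cell types are not reported here, since 0 of the identifiers occurred in the name tables.

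The members differed in level among themselves. Levels are given in CPM (read counts scaled to a common library size, with TMM factors over all 18 libraries), and levels of different genes are compared in CPM per kilobase of exon. In shIrf3 cells Mgp averaged 14.7 ± 1.80 CPM per kilobase, Col11a1 6.35 ± 0.729 and Scg2 2.57 ± 0.207 (SD, n = 3). In shIrf3+LPS cells Mgp averaged 5.14 ± 0.860 CPM per kilobase, Col11a1 1.87 ± 0.468 and Scg2 0.421 ± 0.147 (SD, n = 3). Per length, Mgp was the most abundant and Scg2 the least in both groups. Ranked by group mean CPM, the order was EGFP, 2D, shLuc, shIrf3, shIrf3+LPS and shLuc+LPS for Mgp, shIrf3, shLuc, EGFP, 2D, shIrf3+LPS and shLuc+LPS for Col11a1, and shLuc, EGFP, shIrf3, 2D, shIrf3+LPS and shLuc+LPS for Scg2. For each member the LPS groups were the lowest. The ranges of neighbouring groups in these orders overlapped except between shIrf3 and shIrf3+LPS and between the LPS groups for Mgp, and on either side of 2D for Col11a1 and for Scg2.

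**Figure D1:**
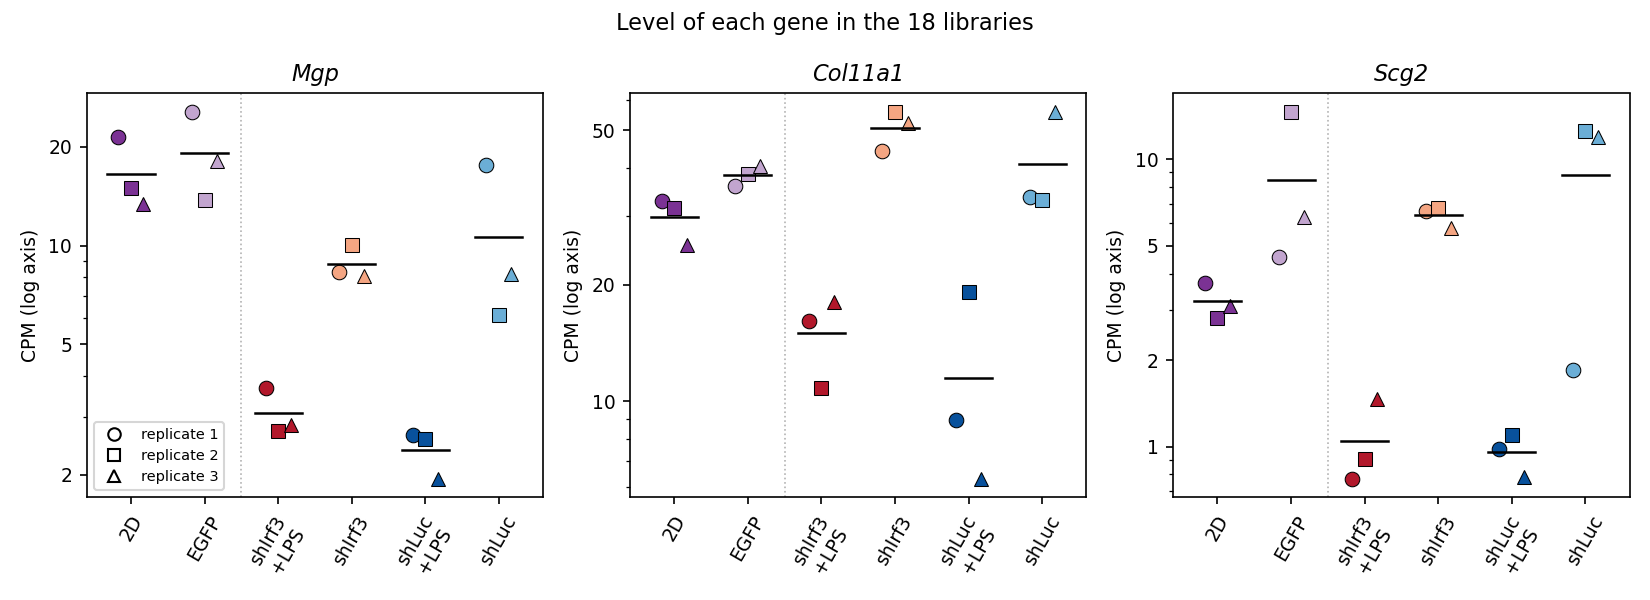
Level of each member in CPM (log axis) in the 18 libraries, by group, with replicates as symbols and group means as bars; the dotted line separates the overexpression arm from the knockdown and LPS arm. All 6 LPS libraries lie below the libraries of the same hairpin without LPS for each gene, and Scg2 in shLuc replicate 1, at 1.84 CPM, lies close to the LPS libraries.

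Mgp was low in both groups given LPS. It had 2.64, 2.58 and 1.94 CPM in shLuc+LPS cells, against 17.6, 6.13 and 8.20 CPM in shLuc cells (replicates 1 to 3). In knockdown cells it had 3.67, 2.73 and 2.84 CPM with LPS (shIrf3+LPS), against 8.33, 10.1 and 8.06 CPM without it (shIrf3). The groups did not overlap in either hairpin. The fitted fold change was 4.46-fold lower with LPS in shLuc cells (log2 fold change -2.16, rank 8 of 14970 from the largest fall) and 2.75-fold lower in shIrf3 cells (log2 fold change -1.46, rank 20). Without shLuc replicate 1 the fitted log2 fold change in shLuc cells was -1.56, near that of the knockdown cells.

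Col11a1, the collagen chain, varied most of the members among the shLuc+LPS libraries, with an SD of 0.81 on the log2 CPM scale. It had 8.96, 19.1 and 6.30 CPM in shLuc+LPS cells, against 33.7, 33.0 and 55.8 CPM in shLuc cells. Knockdown cells held 16.1, 10.8 and 17.99 CPM with LPS (shIrf3+LPS), against 44.2, 55.6 and 52.1 CPM without it (shIrf3). Again the groups did not overlap, and shLuc+LPS replicate 2 was the highest of the 6 LPS libraries. The fitted fold change was 3.53-fold lower with LPS in shLuc cells (log2 fold change -1.82, rank 12 from the largest fall) and 3.28-fold lower in shIrf3 cells (log2 fold change -1.71, rank 10).

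Scg2, the granin, had the largest fold of the members. It had 0.981, 1.10 and 0.783 CPM in shLuc+LPS cells, against 1.84, 12.6 and 12.001 CPM in shLuc cells. In knockdown cells it had 0.771, 0.908 and 1.46 CPM with LPS (shIrf3+LPS), against 6.59, 6.74 and 5.79 CPM without it (shIrf3). The groups did not overlap, although shLuc replicate 1 stood only just above the LPS libraries. The fitted fold change was 9.04-fold lower with LPS in shLuc cells (log2 fold change -3.18) and 5.99-fold lower in shIrf3 cells (log2 fold change -2.58), rank 4 from the largest fall in both. The LPS libraries held from 23 to 36 reads of Scg2 each, and the exact 95% Poisson interval of 23 reads ran from 14.6 to 34.5 reads, which covers counting error only.

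These LPS contrasts chose the members, and nothing is read from the calls in them. Called gene models are those with an adjusted p under 0.05 in edgeR's quasi-likelihood test, with Benjamini-Hochberg adjustment. Of all gene models tested, 4.45% were called lower with LPS in shLuc cells and 3.84% in shIrf3 cells. The groups did not overlap and were lower with LPS for 11.3% of gene models in shLuc cells and 18.8% in shIrf3 cells. The median log2 fold change over all gene models tested was -0.0090 in shLuc cells and 0.0026 in shIrf3 cells. In a bulk sample fewer cells of a type and less RNA per cell cannot be told apart. The difference between the responses (the log2 fold change in shIrf3 cells minus that in shLuc cells) was 0.70 for Mgp, 0.11 for Col11a1 and 0.59 for Scg2, and without shLuc replicate 1 it was 0.11, 0.22 and 1.07. For Col11a1 it was 0.70 without shLuc+LPS replicate 2 and -0.19 without shLuc replicate 3, and for Scg2 it was 0.11 in limma-voom. It rests on the same contrasts and has no test here.

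**Figure D2:**
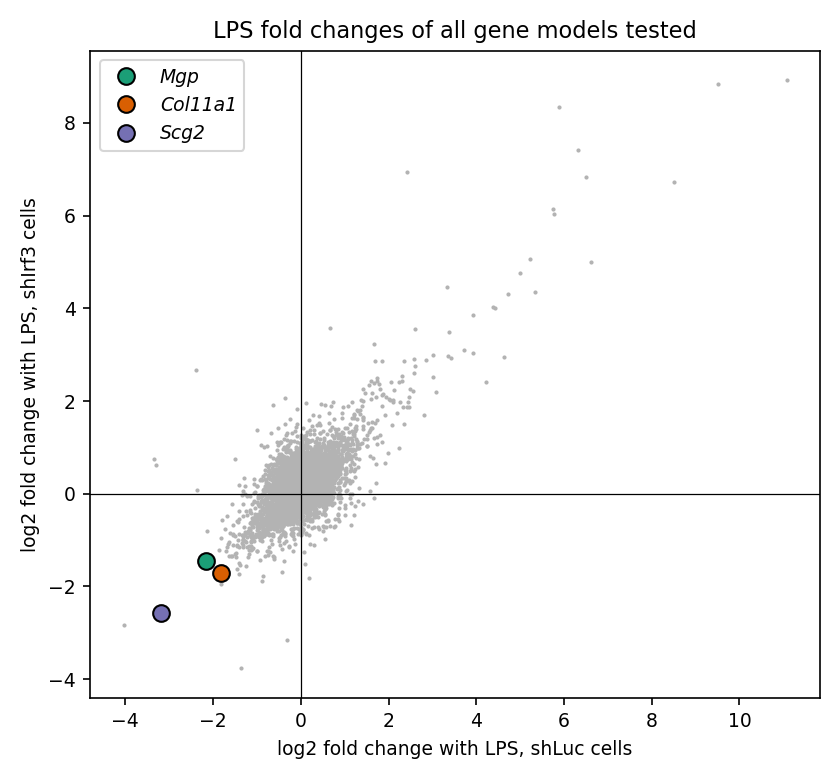
Fitted log2 fold change with LPS in shLuc cells (x axis) and in shIrf3 cells (y axis) for the 14970 gene models tested (grey points), with the members as coloured circles. The members lie among the largest falls on both axes, as they were chosen to, and Scg2 is the lowest of them at -3.18 and -2.58.

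Mgp and Scg2 departed in opposite directions in shLuc replicate 1. Scg2 there was 6.45-fold below the mean of replicates 2 and 3 on the log2 CPM scale, the lowest of 15083 gene models ranked by this departure. Mgp in the same library was 2.46-fold above that mean, at rank 60 from the highest. Col11a1 was 1.27-fold below it, at rank 1535 from the lowest, and in shLuc the collagen was instead highest in replicate 3. The within-group SD of log2 CPM in shLuc was 1.55 for Scg2, 0.78 for Mgp and 0.43 for Col11a1, against medians of 0.19, 0.18 and 0.16 for gene models within 2-fold of each member's level. The mitochondrial share was highest in the same library, at 14.2%, and its part in these departures was not tested. In shIrf3 cells the same SD was 0.12 for Scg2, 0.17 for Mgp and 0.17 for Col11a1, against medians of 0.12, 0.099 and 0.051 for gene models of similar level. There 97.9% of gene models of similar level had a smaller SD than Col11a1, 83.0% a smaller SD than Mgp and 50.4% a smaller SD than Scg2. In EGFP cells the SD of Scg2 was 0.86, against a median of 0.18.

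**Figure D3:**
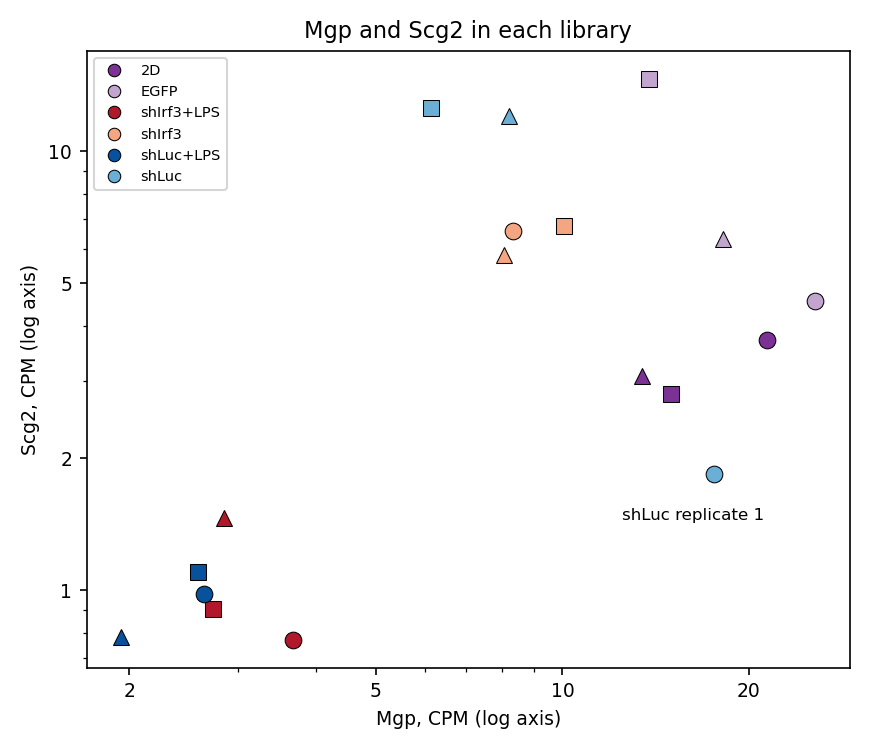
Mgp against Scg2 in CPM (both axes log) in the 18 libraries, coloured by group, with replicates as symbols. The LPS libraries lie at the lower left, and shLuc replicate 1, at 17.6 CPM of Mgp and 1.84 CPM of Scg2, lies away from the other shLuc libraries, at 6.13 and 8.20 CPM of Mgp and 12.6 and 12.001 CPM of Scg2.

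Irf3 knockdown without LPS gave no call for any member. Of all gene models tested, 8.56% were called in this comparison in either direction, against 0 of the 3 members. The contrast was not used in choosing the members, but its libraries enter the LPS contrasts that were. Mgp averaged 8.81 ± 1.08 CPM in shIrf3 cells and 10.6 ± 6.10 CPM in shLuc cells (SD, n = 3 each), a log2 fold change of -0.29 with a 95% interval from -1.02 to 0.43 (edgeR adjusted p = 0.655). Col11a1 averaged 50.6 ± 5.82 CPM in shIrf3 cells and 40.8 ± 12.9 CPM in shLuc cells (SD, n = 3 each), a log2 fold change of 0.30 with an interval from -0.54 to 1.13 (edgeR adjusted p = 0.696). Scg2 averaged 6.37 ± 0.514 CPM in shIrf3 cells and 8.80 ± 6.03 CPM in shLuc cells (SD, n = 3 each), a log2 fold change of -0.47 with an interval from -1.65 to 0.71 (edgeR adjusted p = 0.660). The intervals leave room for changes of more than 2-fold for Mgp, Col11a1 and Scg2 alike.

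The knockdown values of Scg2 and Mgp turned on shLuc replicate 1. Without it Scg2 fell, with a log2 fold change of -0.94 (edgeR adjusted p = 0.000322). That fit called 2744 gene models, against 1281 with all libraries. The library left out was the one where Scg2 departed most from its group, which narrows its spread, so nothing is read from this call. Scg2 then had 6.59, 6.74 and 5.79 CPM in shIrf3 cells, against 12.6 and 12.001 CPM in the remaining shLuc libraries. Without shLuc replicate 2 or replicate 3 it was not called, at -0.13 and -0.17. Mgp changed sign without shLuc replicate 1, to a log2 fold change of 0.30 (edgeR adjusted p = 0.236). For Col11a1 the value was 0.19 without shLuc replicate 1 and 0.59 without shLuc replicate 3, with no call.

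Under LPS, knockdown again gave no call for any member, against 8.2% of gene models tested called in either direction. Mgp averaged 3.08 ± 0.515 CPM in shIrf3+LPS cells and 2.39 ± 0.386 CPM in shLuc+LPS cells (SD, n = 3 each), a log2 fold change of 0.40 with a 95% interval from -0.50 to 1.30 (edgeR adjusted p = 0.649). Its groups did not overlap, as was the case in that direction for 17.7% of gene models. Col11a1 averaged 15.0 ± 3.74 CPM in shIrf3+LPS cells and 11.4 ± 6.74 CPM in shLuc+LPS cells (SD, n = 3 each), a log2 fold change of 0.40 with an interval from -0.52 to 1.32 (edgeR adjusted p = 0.651). Without shLuc+LPS replicate 2 the fold change of the collagen was 0.99, still with no call (edgeR adjusted p = 0.146). Scg2 averaged 1.05 ± 0.366 CPM in shIrf3+LPS cells and 0.955 ± 0.160 CPM in shLuc+LPS cells (SD, n = 3 each), a log2 fold change of 0.13 with an interval from -1.75 to 2.00 (edgeR adjusted p = 0.960). Its reads came to 85 in all over the shIrf3+LPS libraries and 87 over the shLuc+LPS libraries.

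Overexpression of Irf3 was compared with EGFP in libraries that share nothing with the LPS contrasts. Scg2 had 3.72, 2.80 and 3.08 CPM in 2D cells, against 4.55, 14.6 and 6.32 CPM in EGFP cells. Every 2D library lay below every EGFP library, and EGFP replicate 2 was the highest. The log2 fold change was -1.41 with a 95% interval from -2.31 to -0.51, which did not pass adjustment (edgeR adjusted p = 0.166), and it ranked 55 of 13931 from the largest fall. DESeq2 called it (adjusted p = 0.00686), with 481 gene models called in all, against 202 with edgeR. The fold change of Scg2 was -0.77 without EGFP replicate 2 (edgeR adjusted p = 0.447) and -1.71 without EGFP replicate 1 (edgeR adjusted p = 0.0418). Those fits called 7 and 275 gene models.

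Col11a1 was also lower in every 2D library. It had 32.9, 31.4 and 25.3 CPM in 2D cells, against 36.0, 38.5 and 40.5 CPM in EGFP cells. The log2 fold change was -0.36 with an interval from -0.67 to -0.05 before adjustment, and it did not pass (edgeR adjusted p = 0.347). Groups that did not overlap and were lower in 2D were found for 8.43% of gene models tested, and 2 of the 3 members were among them.

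Mgp overlapped between 2D and EGFP. It had 21.4, 15.0 and 13.4 CPM in 2D cells, against 25.6, 13.8 and 18.2 CPM in EGFP cells. The log2 fold change was -0.21 with an interval from -0.78 to 0.36 (edgeR adjusted p = 0.892), and 0.057 without EGFP replicate 1. With edgeR 0 of the 3 members were called for overexpression, and 1.45% of all gene models tested were called in either direction. Without 2D replicate 2 the log2 fold change was -1.34 for Scg2, -0.40 for Col11a1 and -0.14 for Mgp, with no member called, while the number of called gene models was 1021 instead of 202.

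**Figure D4:**
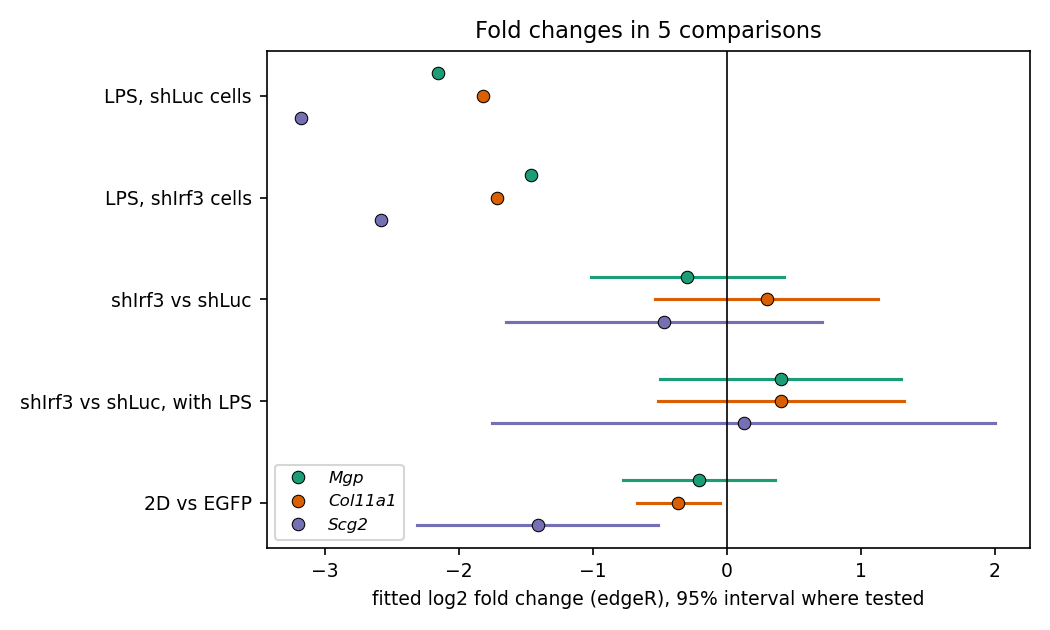
Fitted log2 fold change (x axis) of Mgp, Col11a1 and Scg2 in 5 comparisons (rows), with 95% intervals, unadjusted for multiple tests, in the 3 comparisons not used to choose the members. The LPS values of all members lie from -3.18 to -1.46, the knockdown intervals all include 0, and the overexpression intervals of Scg2 and Col11a1 lie below 0 although neither passed adjustment.

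The gene models most like each member were found by Pearson's r of log2 CPM over the 12 libraries of the knockdown and LPS arm, among gene models with a mean of at least 5 CPM. These libraries fall into separate levels with and without LPS, and r is a description with no p. For Mgp they were uc008eza.1 on chromosome 18 (57292744 to 57457121 on mm9, r = 0.97) and uc012hkf.1 on chromosome X (70728974 to 70741275, r = 0.97). For Col11a1 they were uc007evg.1 on chromosome 10 (36853049 to 36858732, r = 0.97) and uc007ztw.1 on chromosome 16 (85858402 to 85901370, r = 0.96). For Scg2 they were uc008pqw.2 on chromosome 3 (85463985 to 85550131, r = 0.96) and uc007utp.2 on chromosome 14 (84843370 to 84936867, r = 0.96). All 6 had lower mean levels with LPS in both hairpins, with log2 fold changes from -0.95 to -0.37 in shLuc cells and from -0.73 to -0.34 in shIrf3 cells, smaller than those of the members. Col11a1 was rank 134 of 10047 gene models in likeness to Mgp (r = 0.86) and rank 100 of 10048 in likeness to Scg2 (r = 0.86). Mgp was rank 777 in likeness to Scg2 (r = 0.68). Scg2 itself averaged 4.30 CPM over the 12 libraries, under the limit of 5 CPM, and so has no rank in likeness to Mgp or Col11a1.

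These values turned on the LPS split and on shLuc replicate 1. After subtraction of group means, r over the 12 libraries was -0.82 between Mgp and Scg2, 0.15 between Mgp and Col11a1 and 0.32 between Col11a1 and Scg2. Without shLuc replicate 1, an alternative chosen after the data had been seen, the same r over 11 libraries was 0.0011, 0.65 and 0.48. Without that library but with group means kept in, r was 0.90, 0.95 and 0.88 for these pairs.

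The gene models beside the members on their chromosomes are given for comparison, and since the members were chosen for large falls with LPS, nothing is read from the difference. Among the 10 nearest gene models tested, 5 on each side, log2 fold changes with LPS in shLuc cells ran from -0.45 to 0.38 around Mgp, from -0.46 to 1.01 around Col11a1 and from -0.40 to 0.39 around Scg2. In shIrf3 cells they ran from -0.17 to 0.47, from -0.69 to 0.51 and from -0.12 to 0.88 around the same members. With LPS in shLuc cells 1 of the 10 neighbours of each member was called lower by edgeR, against 4.45% of all gene models tested. In shIrf3 cells the share was 3.84%, and 1 of the 10 neighbours of Col11a1 and 0 of those of Mgp or Scg2 were called lower. With overexpression the 10 neighbours of Scg2, whose starts span 2900 kb, ran from -1.91 to 0.070. Of these, 2 were called lower by edgeR, as were 0.639% of all gene models tested. Of the neighbours of Mgp and of Col11a1, 0 of 10 were called lower with overexpression.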

How the data were processed

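RNA from 18 libraries of 3T3-L1 adipocytes, 6 groups of 3 assigned from the sample titles, was sequenced. Per the labels' protocols, 70 ng of total RNA was depleted of ribosomal RNA and prepared with the TruSeq RNA kit v2, a kit without strand information. The deposited table holds raw counts of reads per gene model, not normalized. The submitters' processing notes name, as software of the authors, TopHat2 (2.0.14), featureCounts (1.4.6), SAMtools (0.1.19), Picard (2.2.4), bcl2fastq (2.17.1.14) and edgeR, with build mm9 and no settings. Per the file headers, the table gives exon positions and exon length.

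Counts were tested with edgeR 4.0.16 in R 4.3.3 (robust glmQLFit, then glmQLFTest). Gene models were kept by filterByExpr, libraries were scaled by TMM, and p-values were adjusted by Benjamini-Hochberg over every gene model tested, with calls at 0.05. The 12 libraries of the knockdown and LPS arm and the 6 of the overexpression arm were fitted separately. The step was also run on simulated counts. These had a common spread for all gene models of an arm and no outlying library, unlike the data, so nothing is read from them here. A standard error was taken as the absolute log2 fold change over the root of F, and 95% intervals were made from it. For CPM on the log2 scale the prior count was 2. The alternatives tried were limma-voom (limma 3.58.1), DESeq2 1.42.0, other scalings and filters, the replicate number as a block, other sets of libraries and each library left out.

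The members and lists were chosen with earlier results of these data known. Besides the members, the text names for each member the 2 gene models of highest r with it. Preset marker and pathway lists need symbols, which no table used here pairs with the identifiers, and are not analysed here. Replicate pairs all differed beyond sampling noise, so no library was counted as deposited more than once.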

Additional observations from a re-analysis of the deposited data

How the results depend on the processing

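The members were chosen for falls with LPS in these same libraries, so nothing is read from the sign of their LPS values. For all 3 members these values were negative in every alternative. With each library left out in turn they ran from -2.46 to -1.56 in shLuc cells and from -1.62 to -1.36 in shIrf3 cells for Mgp, from -2.41 to -1.53 and from -1.86 to -1.53 for Col11a1, and from -3.65 to -2.85 and from -2.88 to -2.39 for Scg2. The difference between the responses then ran from 0.11 to 0.999 for Mgp, from -0.19 to 0.70 for Col11a1 and from 0.26 to 1.07 for Scg2.

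For knockdown without LPS, 1 of 66 member values under alternatives passed the threshold, Scg2 without shLuc replicate 1, and for knockdown under LPS 0 of 66. For overexpression 2 of 45 did, Scg2 in DESeq2 (-1.42) and without EGFP replicate 1. The alternatives refit the same libraries, and for knockdown some left out a library outside the comparison, which hardly moves the fold change. These counts therefore do not measure how stable a result is. With libraries left out, knockdown values ran from -0.58 to 0.30 for Mgp, from 0.16 to 0.59 for Col11a1 and from -0.94 to -0.13 for Scg2. Under LPS they ran from 0.24 to 0.50, from 0.11 to 0.99 and from -0.17 to 0.32, the negative value of Scg2 being that without shIrf3+LPS replicate 3. With overexpression they ran from -0.44 to 0.057, from -0.44 to -0.26 and from -1.71 to -0.77.

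In their departures from group means, same-numbered libraries correlated at over 0.1 in at most 1 of 3 pairs per comparison. A weak correlation cannot show that the samples were unpaired, and whether the replicate numbers mark shared cultures or batches is not known. The main fits used no pairing. The replicate block changed no call of a member, and Scg2 stood at -0.30 for knockdown, 0.14 under LPS and -1.23 for overexpression.

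Counts of called gene models, the background of the members, depended more on the setting. They were 1281 for knockdown, 1228 for knockdown under LPS, 1305 for LPS in shLuc cells, 1199 for LPS in shIrf3 cells and 202 for overexpression. A single fit of all 18 libraries gave 386, 378, 695, 621 and 942. From the 6 libraries compared alone the first 4 were 436, 2848, 668 and 2890. With library totals only, knockdown under LPS gave 797, and DESeq2 gave 481 for overexpression. With each library left out they ran from 510 to 2744, from 536 to 2239, from 805 to 2132, from 706 to 2231 and from 5 to 1021.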
